A study of Mus musculus with 6 samples.

Results

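Mouse granulocyte-macrophage progenitors were followed through the first 48 h after the hairpin against Chaf1b was switched on. Of the 4715 genes with enough UMIs to be counted, 107 rose at least 2-fold and 2 fell as far within that time, and the genes that rose came from granule proteins, platelet and mast cell genes, matrix metalloproteinases and the histone variant H3f3b at the same time. The comparison sets the library labelled Caf-1 Off 48hrs against the library labelled Caf-1 Off 0hr. Its members are the cell barcodes of these libraries that carried 200 to 6000 genes and at most 10% of their transcript counts from mitochondrial genes. That left 647 cells at 0 h and 927 cells at 48 h, which is 1574 of the 5872 cells kept in the series.

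The cells are GMP cells of strain C57BI/6 that carry a lysozyme-GFP reporter (Lys-GFP-ER-HoxA9 cells). They are immortalized by HOXA9 fused to the ligand-binding domain of an estrogen receptor, so that HOXA9 is active as long as β-estradiol is in the medium, and they grow in stem cell factor from conditioned medium. All CAF-1 OFF libraries come from a clonal line with an IPTG-inducible hairpin against Chaf1b. The 0 h cells had estradiol and no IPTG, and the 48 h and 96 h cells had estradiol with 500 µM IPTG. The HOXA9 OFF libraries, used here beside the result, come from a clone with a control hairpin from which estradiol was withdrawn for 0, 48 or 96 h. Live cells were sorted before loading on the 10x droplet system, which reads the 3′ end of each transcript and counts molecules by unique molecular identifiers (UMIs). Each time point is 1 library of 1 clone, which leaves no test of any difference, and no library of a control hairpin with IPTG was analysed here. The knockdown, the IPTG itself, the 48 h in culture and the library cannot be told apart.

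CAF-1 is a histone chaperone that places newly made histones H3 and H4 on DNA behind the replication fork. Chaf1a and Chaf1b encode its large and middle subunits, and the third subunit, Rbbp4, is shared with other chromatin complexes. Granulocyte-macrophage progenitors normally give rise to neutrophils and monocytes. On the way to a neutrophil, the proteins of the primary (azurophil) granules are made first, at the promyelocyte stage, and those of the secondary (specific) and tertiary (gelatinase) granules later, under factors such as C/EBPε and GFI1. Platelet, erythroid, mast cell, eosinophil and lymphoid genes belong to other branches of blood formation.

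The label of the cells was checked against markers of the progenitor. Cd34, a surface protein of stem and progenitor cells, was at 756 CPM (counts per 1000000 UMIs of the library) at 0 h and 738 CPM at 48 h. Kit, the receptor for stem cell factor, was at 82.8 and 73.9 CPM, and Fcgr3, an IgG receptor, at 135 and 246 CPM. Mpo, Prtn3 and Ctsg, which encode primary granule enzymes, were at 1451, 1281 and 3472 CPM before induction. Ly6a and Slamf1, genes of earlier stem cells, had 1 and 2 UMIs at 0 h and 5 and 14 UMIs at 48 h. The 8 genes checked as genes of non-blood tissues had 0 UMIs in both libraries. Markers of the progenitor were thus present at both times, and the markers of earlier stem cells were close to absent.

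The hairpin's target was reduced. Chaf1b was at 35.6 CPM (95% Poisson interval 30.1 to 41.8, 150 UMIs) at 0 h and at 3.22 CPM (1.91 to 5.09, 18 UMIs) at 48 h. At 0 h 6.16% of cells had a Chaf1b UMI and at 48 h 0.441%, each cell thinned to 1300 UMIs. Chaf1a was at 32.7 and 29.0 CPM and Rbbp4 at 186 and 176 CPM, so the RNA of neither partner passed 1.5-fold. Protein is not measured in these counts, and the paper reports that CHAF1A protein was degraded once CHAF1B was depleted. Intervals of CPM here are exact Poisson intervals, those of folds and shares exact binomial ones (Clopper-Pearson for shares), and all cover counting error only.

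The libraries were of similar depth but not of equal losses. They held 4214525 UMIs at 0 h and 5589486 at 48 h, with medians of 6571 and 5998 UMIs and 2144 and 2079 genes per cell. The filters on genes and mitochondrial counts together removed 41.7% of the barcodes at 0 h and 18.3% at 48 h, and the median mitochondrial percentage of the cells kept was 5.06 and 5.47. Without the mitochondrial limit 104 genes were higher, 101 of them among the 107 described here, and with a limit of 5% 109 were, with 90 of the 107 among them. No barcode was shared between these libraries, and other pairs of libraries in the series shared 0 to 7. The part of depth and barcode loss in the results was not tested beyond this.

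Most genes were near their starting level after 48 h, and the changes were lopsided. Of 4715 genes that averaged 20 CPM or more across these libraries, 107 (2.27%) were at least 2-fold higher and 2 (0.0424%) at least 2-fold lower, Cox6a2 and Pycrl. At a size of 1.5-fold the numbers were 269 higher (5.71%) and 71 lower (1.51%). The median log2 ratio of all genes counted was −0.024, and its 5th and 95th percentiles were −0.45 and 0.63. Ratios were taken after adding 10 CPM to both levels, which understates the change of low genes, whereas each fold given is the plain ratio of CPM. As a measure of how far libraries lie apart without induction, the HOXA9 OFF library at 0 h was at least 2-fold above the CAF-1 OFF library at 0 h for 31 of these genes and below it for 7. Just inside and just outside the 2-fold limit stood Khk with a log2 ratio of 1.0024 and Dtx4 with 0.998.

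Of the 107 genes that rose, 75 were under 50 CPM at 0 h and 42 under 20 CPM. Those 42 passed the minimum level through the 48 h library and had to be higher there, so counts and medians of the lists, here and in what follows, describe the genes counted and are no measure of a list as a whole. Together the 107 genes held 0.689% of all UMIs at 0 h and 2.52% at 48 h. Slpi and H3f3b alone made up 31.3% of that gain. At 96 h the 107 genes held 4.29% of UMIs, and in HOXA9 OFF their share was 0.848% before and 3.07% after 48 h.

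**Figure D1:**
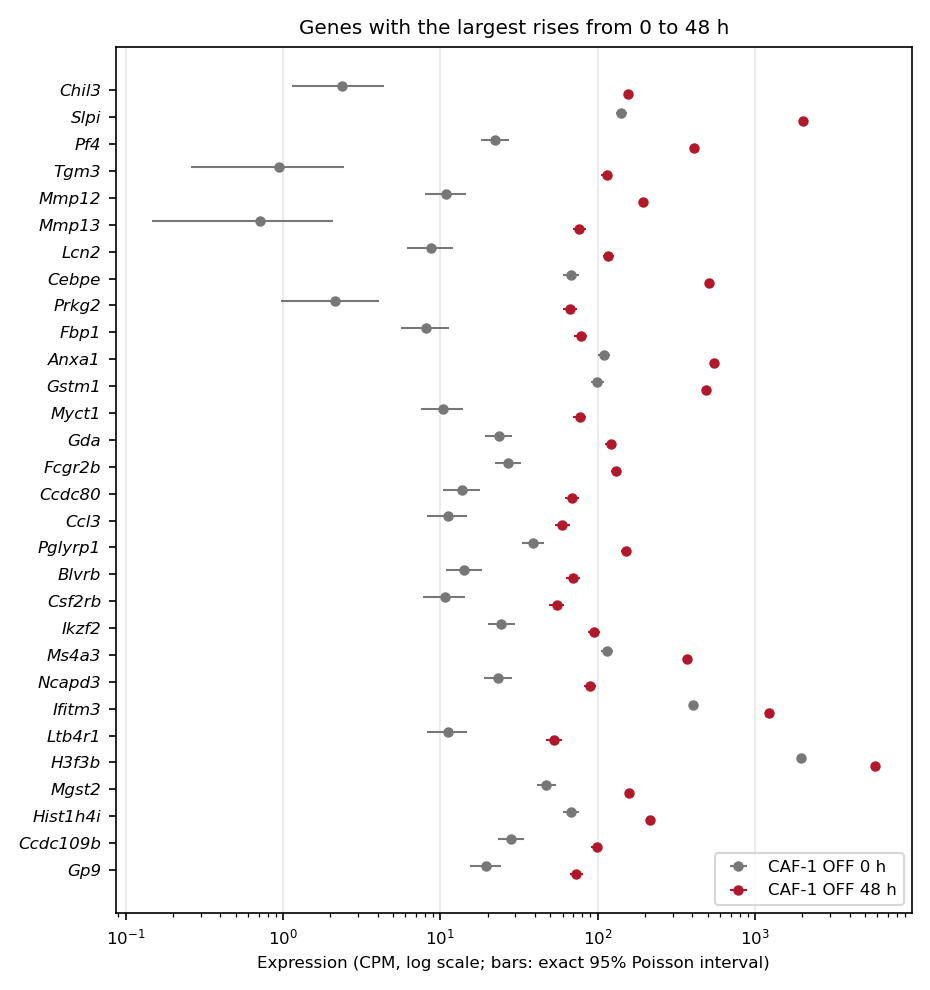
Level in CPM on a log axis of the 30 genes with the largest rises that the naming rule selects, at 0 h (grey) and 48 h (red) of CAF-1 OFF, 1 library each, with exact 95% Poisson intervals of counting error. The intervals of the libraries do not overlap for any of the 30 genes. The genes were chosen for the largest rises in these same counts, so this follows from the choice. The starting levels reach from 0.712 CPM for Mmp13 to 1948 CPM for H3f3b.

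Slpi, a secreted inhibitor of neutrophil elastase and cathepsin G, rose most in absolute terms after H3f3b. Its level at 0, 48 and 96 h was 141, 2016 and 4342 CPM, a rise of 14.3-fold (95% interval 13.2 to 15.6) in the first 48 h. Tgm3, a transglutaminase best known from the skin, was at 0.949 CPM (4 UMIs), 114 CPM and 348 CPM at these times, and its 48 h level was 120.3-fold (46.7 to 443) that at 0 h. Pf4, the chemokine of platelet granules, was at 22.3, 412 and 2481 CPM, with a rise of 18.5-fold in the first 48 h. Each of these genes was higher again in the 96 h library. Slpi and Tgm3 were the 2 that rose of 6 counted in a list of stefins, WFDC proteins and other protease inhibitors. Of all genes counted, 2.27% rose.

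Stretches of DNA just upstream of a transcript start of such genes are shown here because the comparison did not use them. RefSeq promoter windows (GRCm38.p6) were matched by symbol for 84 of the 107 genes and for 3820 of the 4715 genes counted, and the 250 bases before the transcript start were searched. The words were TTGCNNAA for C/EBP factors, GAGGAAGT for PU.1, CCGGAAGT for ETS factors and AGATAA for GATA factors, each on both strands, and TATAAA on the strand of the gene as a TATA box. The PU.1 and ETS words overlap in the letters GGAAGT. A match is a run of letters, not a bound site. Among the 7 largest rises under the naming rule, the promoters of Slpi, Pf4, Tgm3, Mmp12 and Lcn2 held the C/EBP word. These 5 are printed 5′ to 3′ on the strand of the gene, with every match to any of the words in capitals.
Slpi, a protease inhibitor, chr2:164356508-164356757, strand −: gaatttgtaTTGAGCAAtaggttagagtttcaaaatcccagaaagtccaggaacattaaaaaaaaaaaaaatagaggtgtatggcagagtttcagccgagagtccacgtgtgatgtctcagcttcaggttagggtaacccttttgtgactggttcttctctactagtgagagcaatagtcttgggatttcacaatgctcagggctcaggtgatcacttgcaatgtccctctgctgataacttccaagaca
Pf4, a platelet chemokine, chr5:90772185-90772434, strand +: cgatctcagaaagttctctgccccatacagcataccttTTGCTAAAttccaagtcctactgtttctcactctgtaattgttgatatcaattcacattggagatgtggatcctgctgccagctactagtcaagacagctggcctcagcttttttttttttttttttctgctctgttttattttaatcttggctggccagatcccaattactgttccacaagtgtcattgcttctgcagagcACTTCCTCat
Tgm3, a transglutaminase, chr2:130012090-130012339, strand +: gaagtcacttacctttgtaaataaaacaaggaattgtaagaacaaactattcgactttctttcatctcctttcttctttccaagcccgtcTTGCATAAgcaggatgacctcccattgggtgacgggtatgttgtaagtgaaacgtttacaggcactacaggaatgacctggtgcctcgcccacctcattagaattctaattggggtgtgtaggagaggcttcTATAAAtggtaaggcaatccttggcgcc
Mmp12, a metalloproteinase, chr9:7344147-7344396, strand +: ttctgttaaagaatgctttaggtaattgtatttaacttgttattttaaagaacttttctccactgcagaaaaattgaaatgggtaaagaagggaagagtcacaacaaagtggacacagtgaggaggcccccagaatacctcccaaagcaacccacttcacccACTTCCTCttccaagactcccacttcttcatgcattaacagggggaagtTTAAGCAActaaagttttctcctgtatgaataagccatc
Lcn2, a granule protein, chr2:32387740-32387989, strand −: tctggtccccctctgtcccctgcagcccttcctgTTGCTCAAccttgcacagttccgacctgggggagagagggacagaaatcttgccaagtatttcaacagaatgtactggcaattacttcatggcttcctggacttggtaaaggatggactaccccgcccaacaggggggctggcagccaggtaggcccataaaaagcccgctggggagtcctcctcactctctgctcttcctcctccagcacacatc

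In these windows the C/EBP word began 241 bases before the start in Slpi, 212 in Pf4, 160 in Tgm3, 39 in Mmp12 and 216 in Lcn2. Pf4 and Mmp12 also held the PU.1 word, 10 and 88 bases before the start, and Tgm3 a TATA box at 28 bases. The Tgm3 window lies before a transcript start inside the annotated gene, which spans chr2:129987794-130050399. Which start these cells use was not tested. Of the other genes among the 7, Chil3 held the GATA word and Mmp13 the TATA box. Over all 84 promoters of genes that rose, 17 (20.2%) held the C/EBP word, against 7.62% of the genes counted and 9.55% of all 27025 windows. The PU.1 word was in 9.52%, 2.62% and 2.44% of the same sets, and the TATA box in 16.7%, 3.93% and 8.12%. The GATA word was in 10.7%, 5.31% and 10.3%. The ETS word was in 1 of the 84 promoters (1.19%), against 7.80% of the genes counted and 2.93% of all windows.

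CpG dinucleotides were counted in the same windows. The ratio of observed to expected CpG was under 0.3 in 35 of the 84 (41.7%), and in 6.73% of the genes counted, while it was under 0.3 in 42.7% of all windows of the annotation. The share among the genes that rose was thus close to that of all windows. Genes silent at both times are not among the genes counted, and the part of the minimum level in these differences was not tested. The promoter of Mmp12 printed above holds 0 CpG, those of Pf4 and Slpi 1 and 2, and that of Tgm3 6. Tissue-specific genes commonly have promoters low in CpG, and housekeeping genes CpG islands.

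Genes of the late granules of neutrophils rose for a few members and were all but absent for the rest. In the list of secondary and tertiary granule genes, 16 of 18 had a UMI and 5 were high enough to be counted. These 5 rose at least 2-fold, where 2.27% of all genes counted did, with a median log2 ratio of 2.76. Chil3, Lcn2 and Hp were under 20 CPM at 0 h and were counted through their 48 h level. The 5 genes were Mmp8 (neutrophil collagenase), Chil3 (a chitinase-like protein), Lcn2 (lipocalin 2, which binds bacterial siderophores), Anxa1 (annexin A1) and Hp (haptoglobin). Mmp8 was at 24.2, 582 and 724 CPM at 0, 48 and 96 h, which was the largest log2 ratio of all genes counted in the first 48 h, 4.11, and a 24.0-fold rise (19.7 to 29.6). In the other 0 h library Mmp8 was at 4.53 CPM, more than 2-fold away, so it is not among the 30 genes of the naming rule. Chil3 was at 2.37 CPM (10 UMIs), 157 CPM and 144 CPM, a rise of 66.1-fold (35.7 to 138). Lcn2 was at 8.78, 117 and 428 CPM, and Anxa1 at 109.9, 545 and 1115 CPM.

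Other genes of these granules had few UMIs at 48 h. Ltf (lactoferrin) and Padi4 had 0 UMIs in both libraries. Camp, Ngp and Ly6g had 0 UMIs at 0 h and 2, 1 and 1 at 48 h. S100a8, a subunit of calprotectin, had 0 and 80 UMIs, at least 20.1-fold higher against a floor of 3 UMIs of the 0 h library, while its partner S100a9 had 0 and 6. In HOXA9 OFF at 48 h the same genes were at 143 CPM for Ltf, 675 CPM for Camp, 2275 CPM for Ngp and 4001 CPM for S100a8. Summed over all list members, the level went from 159 to 1468 CPM with the hairpin and from 131 to 17853 CPM with estradiol withdrawn.

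Genes of the primary granule and early granulocyte rose in part. Of 12 members 10 were counted, 6 of them rose at least 2-fold, where 2.27% of all genes counted did, all 10 had ratios above 0, as had 2193 of the 4715, and the median log2 ratio was 1.35. Cebpe, the factor C/EBPε of late granulocyte development, was at 67.4, 510.1 and 785 CPM at 0, 48 and 96 h, a rise of 7.57-fold (6.70 to 8.58). Elane, neutrophil elastase, was at 129, 913 and 1386 CPM and rose 7.10-fold (6.50 to 7.77). Gstm1 (a glutathione transferase) went from 99.4 to 491 CPM, Ms4a3 (a membrane protein of granulocyte-monocyte progenitors) from 115 to 371 CPM, Clec12a (an inhibitory lectin receptor) from 51.5 to 147 CPM and Gfi1 (a repressor needed for neutrophils) from 27.8 to 86.2 CPM. The granule enzymes that were abundant from the start moved less. Mpo was 1.33-fold, Prtn3 1.31-fold and Ctsg 1.19-fold the 0 h level.

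Genes of mast cells and basophils were at least 2-fold higher for 2 members of 3 counted, where 2.27% of all genes counted were. Mcpt8, a basophil protease, was at 40.1, 373 and 1159 CPM at 0, 48 and 96 h, and Cpa3, mast cell carboxypeptidase, at 209, 1035 and 2813 CPM. The rises in the first 48 h were 9.31-fold (7.95 to 11.0) and 4.96-fold (4.62 to 5.33). The other 0 h library held 164 CPM of Mcpt8 and 491 CPM of Cpa3, so both genes started lower here than in the control clone by more than 2-fold. Gata2, the third gene counted, was at 27.0 and 38.8 CPM. Fcer1a, Tpsb2 and Il4 had 0 UMIs in both libraries, and Ms4a2, which like Fcer1a encodes a subunit of the IgE receptor, had 1 and 5.

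Of the megakaryocyte and platelet genes, 11 of 16 had a UMI and 4 were counted. Pf4 and Gp9 rose at least 2-fold, where 2.27% of all genes counted did, and the median log2 ratio was 1.22. Gp9, platelet glycoprotein IX, was at 19.5, 73.4 and 132 CPM at 0, 48 and 96 h. Cd9, a tetraspanin, was at 26.6 and 60.1 CPM, and Plek at 63.4 and 73.4 CPM. Itga2b, the integrin αIIb chain, was at 3.56 CPM (15 UMIs) and 13.8 CPM (77 UMIs), and Ppbp had 0 and 17 UMIs. Vwf, von Willebrand factor, had 1 and 3 UMIs, and Gp5 and Gp6 had 0 in both libraries.

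Erythroid, eosinophil, lymphoid and monocyte lists each had 1 or 2 genes that rose at least 2-fold, where 2.27% of all genes counted did. Among 4 erythroid genes counted, Blvrb (biliverdin reductase B) went from 14.2 to 69.4 CPM and Car2 (carbonic anhydrase 2) from 96.8 to 219.7 CPM. The erythroid regulators Gata1 and Klf1 were at 1.19 and 1.66 CPM at 0 h and at 4.47 and 2.50 CPM at 48 h. Of the eosinophil genes, Prg3 rose from 74.7 to 189 CPM and Prg2, eosinophil major basic protein, was at 141 and 269.6 CPM. These eosinophil genes were at 593 and 876 CPM in the other 0 h library, above their 48 h levels here, and the list's median of 1.06 turned to −0.84 when the mean of both 0 h libraries was the start.

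In the lymphoid list, 1 of 4 genes counted rose, Nkg7 (a cytotoxic granule protein), from 52.4 to 159 CPM, and the median log2 ratio was 0.86. Igll1, a part of the surrogate light chain of the pre-B receptor, was at 315 and 589 CPM. Of 6 monocyte genes counted, 4 were at least 1.5-fold higher, where 5.71% of all genes counted were, and the median was 0.76. Ly6c2 rose from 32.3 to 169 CPM, and Fcgr3 was at 135 and 246 CPM. Ccr2, the receptor that guides monocytes, was 0.617-fold (0.579 to 0.658), from 501 to 309 CPM. Csf1r, the receptor for macrophage colony-stimulating factor, had 3 and 11 UMIs, and Irf8 was at 23.3 and 20.8 CPM. Ly6c2 was also the gene that rose of 2 counted in the Ly6 family. Reads of Ly6c2 and of its close copies may be hard to tell apart in such counts.

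**Figure D2:**
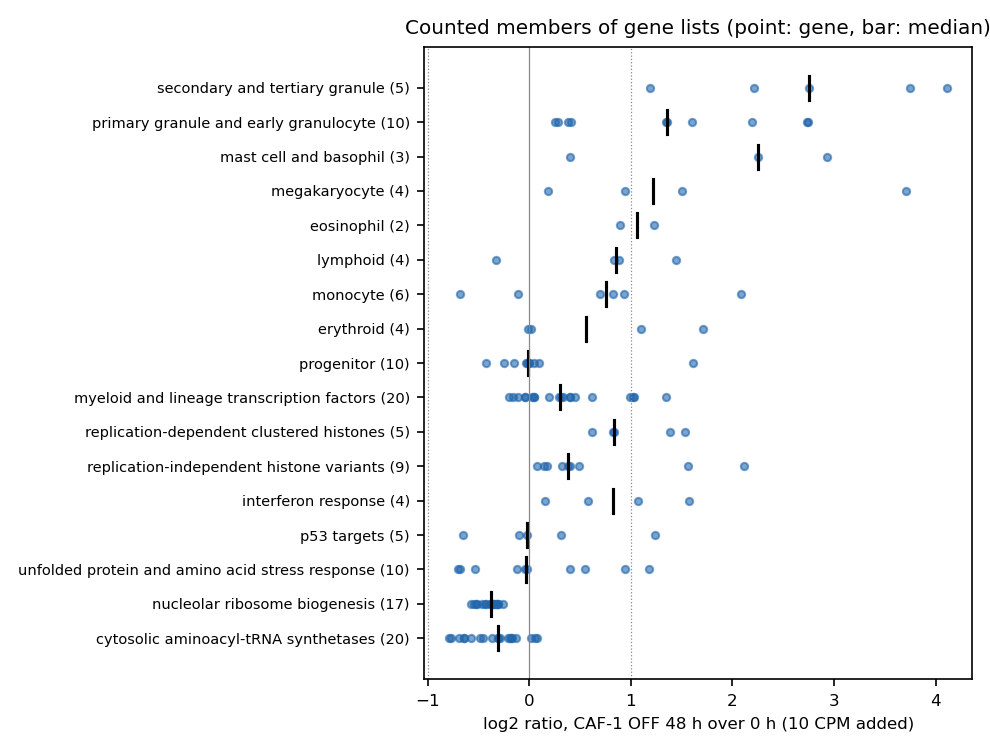
Log2 ratio of 48 h over 0 h in CAF-1 OFF for the counted members of 17 gene lists, with a point for each gene, a black bar for the median and the number of counted members in brackets. Dotted lines mark 2-fold changes. The 5 secondary and tertiary granule genes all lie above the upper line, where 2.27% of all genes counted lie. Of these, Chil3, Lcn2 and Hp were under 20 CPM at 0 h and were counted through their 48 h level. The 17 nucleolar genes all lie below 0, as do 2522 of the 4715 genes counted.

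Progenitor genes were close to where they started. Of 10 members counted, 1 was at least 2-fold higher, where 2.27% of all genes counted were, and the median log2 ratio was −0.012. Flt3 was at 99.4 and 99.5 CPM, Cd48 at 122 CPM in both libraries, and Myb at 271 and 281 CPM. Hoxa9, the only Hox gene counted, was at 24.7 and 24.2 CPM, and its counts may hold transcripts of the fusion. In its bulk RNA-seq the paper saw no reads over the untranslated regions of Hoxa9. From this it infers that the fusion was expressed and the endogenous gene was not. Meis1, a cofactor of HOXA9, was at 45.6 and 31.3 CPM. The gene that rose was Ikzf2, the zinc finger factor Helios, from 24.4 to 95.2 CPM.

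Among transcription factors of myeloid and other lineages, 20 were counted, with a median log2 ratio of 0.31. Of these, 3 rose at least 2-fold, where 2.27% of all genes counted did. They were Gfi1, Cebpb (C/EBPβ, from 44.6 to 102 CPM) and Id1 (an inhibitor of basic helix-loop-helix factors, from 18.0 to 47.1 CPM). Cebpa, the founding C/EBP factor of granulocytes, was at 51.7 and 66.9 CPM, Spi1, which encodes PU.1, at 166 and 230.1 CPM, and Elf1 at 55.5 and 47.2 CPM. Myc was at 102 and 90.0 CPM. The levels of Cebpa, Spi1 and Elf1 differed by less than 1.5-fold between the times.

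Some histone genes rose, and of the histone chaperones counted 0 passed 2-fold. H3f3b, which together with H3f3a encodes the replication-independent histone H3.3, was at 1948, 5791 and 5956 CPM at 0, 48 and 96 h, a rise of 2.97-fold (2.90 to 3.05). H3f3a was at 1979 and 2482 CPM. H1fx, a linker histone, was at 40.6, 209 and 311 CPM, a rise of 5.15-fold (4.38 to 6.08), and it was at 119 CPM in the other 0 h library. All 9 variants counted had ratios above 0, as had 2193 of the 4715 genes counted, with a median of 0.38. H2afz was at 4180 and 4611 CPM.

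Of 69 clustered histone genes 63 had a UMI and 5 were counted. All 5 were at least 1.5-fold higher, where 5.71% of all genes counted were, with a median log2 ratio of 0.84. Hist1h4i, a histone H4 gene, rose from 67.4 to 214 CPM and Hist1h2bc, a histone H2B gene, from 31.8 to 99.3 CPM. The messages of these genes mostly lack a poly(A) tail, which the assay relies on, and near-identical copies make the value of a single gene uncertain. For the 15 counted genes of CAF-1 subunits and other histone chaperones the median was −0.094, with Chaf1b itself left out by its level. Nasp, a chaperone of H3 and H4, was at 179 and 115 CPM, more than 1.5-fold lower, and Asf1b, which hands H3-H4 to CAF-1, at 89.7 and 119.9 CPM. Of 15 heterochromatin, DNA methylation and Polycomb genes and 5 lamina genes, 0 passed 2-fold. Of all genes counted, 2.27% were at least 2-fold higher and 0.0424% at least 2-fold lower, so lists this short could well hold 0.

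The metalloproteinases that rose lie in the same stretch of the genome, and they are the 3 counted members of a list added after values were seen. Mmp13, Mmp12 and Mmp8 are in a cluster of 10 genes at chr9:7272514-7699585 (GRCm38.p6). Mmp12, macrophage elastase, was at 10.9, 194 and 86.2 CPM at 0, 48 and 96 h, a rise of 17.8-fold (13.2 to 24.4) in the first 48 h. Mmp13, a collagenase, had 3 UMIs at 0 h (0.712 CPM) and was at 76.4 and 104 CPM at 48 and 96 h. Its ratio over 0 h was 107 (36.5 to 522). Mmp27 had 0 and 25 UMIs and Mmp3 1 and 4, and the other 5 genes of the cluster had 0 UMIs at both times.

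In HOXA9 OFF at 48 h, Mmp13 had 0 UMIs and Mmp12 2 UMIs, while Mmp8 was at 122 CPM. A group of 7 chemokine genes around Pf4 at chr5:90759298-90905938 had the same uneven pattern. Cxcl3 had 0 UMIs at 0 h and 183 at 48 h, Cxcl2 1 and 48, Ppbp 0 and 17, and Cxcl15 0 and 2, and Cxcl5 and Cxcl1 had 0 at both times. Over the genome, 14 of the 107 genes that rose (13.1%) had another such gene within 100 kb, against 149 of 4582 other genes counted (3.25%). Of the chemokine list as a whole 2 genes were counted and 1 of them, Ccl3, rose. The neighbouring pairs were Dhrs1 with Ltb4r1, Ms4a6d with Ms4a3, 1110008P14Rik with Lcn2, S100a11 with S100a10, Pla2g12a with Ccdc109b, Ifitm1 with Ifitm3, and Mmp13 with Mmp12.

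The remaining large rises were of receptors, enzymes and signalling genes. Fcgr2b, the inhibitory IgG receptor, went from 27.0 to 130.4 CPM, Csf2rb, the shared receptor chain for interleukin 3 and GM-CSF, from 10.7 to 54.7 CPM, and Ltb4r1, a leukotriene B4 receptor, rose 4.75-fold from 11.2 CPM. Prkg2, a cGMP-dependent protein kinase, was at 2.14 CPM (9 UMIs), 66.9 CPM and 21.7 CPM at 0, 48 and 96 h. It was thus lower at 96 h than at 48 h, as Mmp12, Chil3 and Ccdc109b also were.

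Fbp1, the fructose-bisphosphatase of gluconeogenesis, went from 8.07 to 77.8 CPM, Gda (guanine deaminase) from 23.5 to 121 CPM, and Mgst2 (a microsomal glutathione transferase) from 47.2 to 159 CPM. Pglyrp1, a peptidoglycan recognition protein of neutrophil granules, rose from 38.9 to 151 CPM, and the chemokine Ccl3 from 11.2 to 59.8 CPM. Myct1 went from 10.4 to 77.1 CPM, Ccdc80 from 13.8 to 68.5 CPM, Ncapd3, a subunit of condensin II, from 23.3 to 89.8 CPM, and Ccdc109b, a subunit of the mitochondrial calcium uniporter, from 28.2 to 98.6 CPM. Every gene in this group was more than 3-fold its level at 0 h.

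Among the other 77 genes that rose, 5 that are unusual for blood progenitors were singled out after their values were seen. Acta2, smooth muscle actin, went from 0.949 CPM (4 UMIs) to 42.0 CPM, and Dgat2, a triglyceride synthase, had 2 UMIs at 0 h and was at 41.9 CPM at 48 h. Apoa2, an apolipoprotein made by the liver, went from 3.08 to 39.4 CPM and Afp, fetal liver α-fetoprotein, from 14.2 to 52.1 CPM. Rhd, the Rhesus antigen of red cells, rose from 7.12 to 47.9 CPM.

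Of 4 interferon response genes counted, Ifitm3 and Ifitm1 rose, from 403 to 1220 CPM and from 396 to 845 CPM. The list's median was 0.83, and of all genes counted 2.27% rose at least 2-fold. Isg15 and Irf7, which interferon induces strongly, were at 2.37 and 1.90 CPM at 0 h and at 14.3 and 11.5 CPM at 48 h. Of the S100 family 2 of 5 rose, S100a11 from 96.6 to 236 CPM and S100a10 from 112 to 239.9 CPM. Among annexins, a list added after values were seen, 3 of 6 rose, Anxa1, Anxa5 and Anxa2. Of 5 p53 target genes counted, Gadd45a rose, from 19.2 to 58.9 CPM, and the median was −0.026. Cdkn1a, which encodes p21, was at 10.9 and 25.9 CPM, and Fas had 3 and 51 UMIs.

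**Figure D3:**
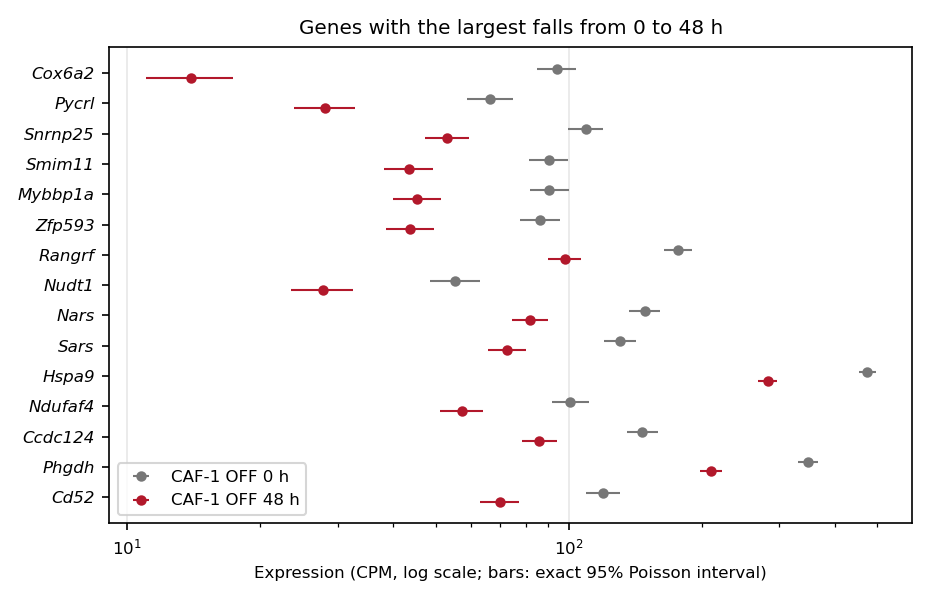
Level in CPM on a log axis of the 15 genes with the largest falls that the naming rule selects, at 0 h (grey) and 48 h (red) of CAF-1 OFF, 1 library each, with exact 95% Poisson intervals of counting error. Cox6a2 stands apart, with 94.0 CPM at 0 h and 14.0 CPM at 48 h, and the other 14 genes were between 1.66-fold and 2.37-fold lower.

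Decreases were fewer among the genes counted, and Chaf1b and Trib3, both lower at 48 h, averaged too few CPM to be among them. Cox6a2, the muscle form of a cytochrome c oxidase subunit, was at 94.0, 14.0 and 84.0 CPM at 0, 48 and 96 h, which is 6.73-fold (5.27 to 8.70) lower at 48 h and close to the start at 96 h. Pycrl, an enzyme of proline synthesis, was at 66.4, 28.1 and 30.8 CPM and fell 2.37-fold (1.94 to 2.89). Nars and Sars, which charge tRNAs with asparagine and serine, were at 149 and 131 CPM at 0 h and at 81.9 and 72.6 CPM at 48 h. Phgdh, the first enzyme of serine synthesis, was at 349 and 209.9 CPM, and Hspa9, the mitochondrial HSP70, at 474 and 283 CPM. Mybbp1a, a nucleolar protein, was at 90.4 and 45.4 CPM.

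Genes of nucleolar ribosome biogenesis were lower by small amounts throughout. All 17 counted had ratios below 0, as had 2522 of the 4715 genes counted, with a median log2 ratio of −0.37, though 0 passed 1.5-fold, and the summed level of all 20 members was 6601 CPM at 0 h and 4755 CPM at 48 h. Npm1, nucleophosmin, was at 3022 and 2026 CPM, Ncl, nucleolin, at 941 and 736 CPM, and Fbl, fibrillarin, at 353 and 260.1 CPM. Of the 20 cytosolic aminoacyl-tRNA synthetases, a list added after values were seen, 17 had ratios below 0, 5 were at least 1.5-fold lower, against 1.51% of all genes counted, and the median was −0.30. In the list of unfolded protein and amino acid stress genes, Xbp1 rose from 33.5 to 88.2 CPM and the median over 10 genes was −0.031. Atf4, the factor that drives amino acid supply genes, was at 186, 113 and 146 CPM at 0, 48 and 96 h and Asns, asparagine synthetase, at 83.3, 54.6 and 81.2 CPM. Trib3, a target of ATF4, was at 26.6, 4.83 and 23.7 CPM. These 3 genes shared with Cox6a2 a level at 96 h above that at 48 h.

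Genes of growth and metabolism mostly stayed within 2-fold, as did all but 2.27% (higher) and 0.0424% (lower) of the genes counted. Of 31 genes of DNA replication and nucleotide supply 0 passed 2-fold in either direction, with a median log2 ratio of −0.016, and of 25 mitotic genes 0 did, with a median of 0.11. The summed levels of all members of these lists were 4008 and 3969 CPM for replication and 4331 and 4590 CPM for mitosis at 0 and 48 h. Cytosolic ribosomal proteins (81 counted, median −0.087), the mitochondrial ribosome (74, −0.14), glycolysis (12, −0.15), sterol and fatty acid synthesis (11, −0.059), actin and its partners (17, −0.063), tubulins (9, 0.14), NADPH oxidase (5, 0.070) and heat shock genes (6, −0.083) had 0 members past 2-fold. Of 74 nuclear genes of oxidative phosphorylation the exception was Cox6a2, and of 11 mitochondrially encoded genes 0 passed 2-fold. The 11 genes of the two-cell-stage-like state had 0 UMIs, which allows up to 0.712 CPM at 0 h and 0.537 CPM at 48 h for each of them, and 0 of 14 germline and 0 of 19 imprinted genes reached the level needed to be counted.

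Genes with no UMI before induction were found in 1 direction. With both libraries at 4214525 UMIs, 73 genes had at least 10 UMIs at 48 h and 0 at 0 h, and 0 genes had the reverse. Between the 0 h libraries of the arms the numbers were 12 and 7. Beside Cxcl3, S100a8 and Mmp27, these genes included Nlrp10 (a member of the NLR family, 176 UMIs at 48 h, at least 44.2-fold higher against the floor), Raet1e, a ligand of the NKG2D receptor (149 UMIs, at least 37.4-fold), Serpinb2, an inhibitor of plasminogen activators (146 UMIs, at least 36.7-fold) and the lysozyme gene Lyz1 (170 UMIs, at least 42.7-fold). In HOXA9 OFF at 48 h Cxcl3 had 1 UMI and Nlrp10 0 UMIs. At equal totals 13064 genes had a UMI at 48 h and 12111 at 0 h.

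Rises reached many cells rather than few for some genes, and few for others. At 1300 UMIs per cell, 633 cells at 0 h and 907 at 48 h could be used. The share of cells with a UMI of Slpi was 11.7% (95% interval 9.29 to 14.5) at 0 h and 57.2% (53.9 to 60.5) at 48 h. For Cpa3 the shares were 17.2% and 54.9%, for Gstm1 11.4% and 42.7%, for Cebpe 6.48% and 41.7%, for Elane 9.32% and 40.2%, for Mmp8 2.53% and 35.3%, and for Pf4 3.00% and 29.0%. No cell type that should lack these genes could be set apart in the libraries, so the share that free RNA gives was not measured. Without thinning, the shares for Slpi were 31.8% and 77.3%. For Tgm3 the 0 h count was 0 of 633 cells (a share of up to 0.474% is possible with such a count), and it was in 10.1% (8.26 to 12.3) at 48 h, and Chil3 went from 0.316% to 8.05%.

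Some of these shares were smaller than the summed UMIs would give if spread evenly over the cells. An even spread of the 48 h UMIs would have put Slpi in 93.2% of cells, Elane in 72.9%, Mmp8 in 54.1%, Pf4 in 42.2% and Chil3 in 19.8%. Fcgr2b and Fbp1, in 14.1% and 10.1% of cells, stood at what an even spread gives, 14.1% and 10.4%. The first group was thus concentrated in part of the cells.

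Summed over the 105 genes that rose other than Slpi and H3f3b, a cell held a median of 6 UMIs of 1300 at 0 h, and the 5th and 95th percentiles were 2 and 13. At 48 h the median was 20, with percentiles of 7 and 45, and 74.5% of cells were above 13. At 96 h the median was 41. The genes were chosen for higher sums in these same cells at 48 h, so the higher median is given by the choice and only the spread among cells is described. The median number of all genes detected per thinned cell was 728 at 0 h and 740 at 48 h.

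**Figure D4:**
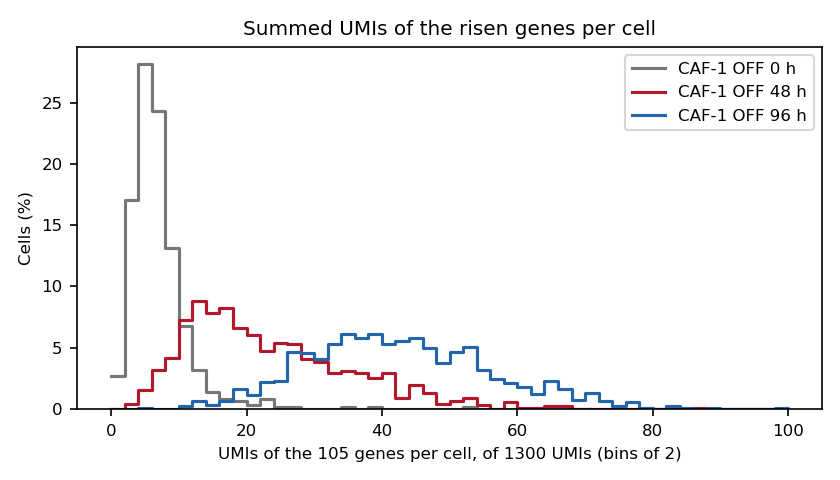
Share of cells (%) by the summed UMIs of the 105 genes that rose (without Slpi and H3f3b), each cell thinned to 1300 UMIs, in bins of 2 UMIs, for CAF-1 OFF at 0 h (grey), 48 h (red) and 96 h (blue), 1 library each. The medians are 6, 20 and 41 UMIs, and the 48 h curve is broad and overlaps both others.

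Genes of the same lineage and of different lineages were found in the same cells at 48 h. Elane and Mmp8 are both neutrophil granule genes, and Elane was detected in 69.4% (64.0 to 74.4) of the cells with Mmp8 and in 24.4% of the rest. Pf4 was detected in 44.4% (39.2 to 49.6) of the cells with Elane and in 18.6% of the rest, and Mcpt8 in 48.3% (42.1 to 54.5) of the cells with Pf4 and in 24.2% of the rest. For Mmp12 the shares were 14.8% of the cells with Slpi and 10.1% of the rest. Cpa3 was spread without regard to these genes or against them, in 49.3% of the cells with Elane and 58.7% of the rest. Chil3 was in 3.61% of the cells with Cpa3 and 13.4% of the rest, and in 4.31% of the cells with Mmp12 and 8.60% of the rest. For Pf4 it went the other way, with Chil3 in 16.3% of the cells with Pf4 and 4.66% of the rest. Cells of 1 library are not replicates. After the 5% of cells with the most UMIs, which could be doublets, were left out, the share with Elane among cells with Mmp8 was 69.5%. Pf4 was then in 43.3% of the cells with Elane and 18.6% of the rest, and Mcpt8 in 46.9% of the cells with Pf4 and 24.4% of the rest.

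The HOXA9 OFF arm served to show which of these changes also occurred when HOXA9 was switched off instead, in another clone. It has its own 0 h library, so no sample is shared. Of the 107 genes, 47 (43.9%) were at least 2-fold higher there at 48 h, where 7.57% of the genes counted were, and 45 were between the limits. The other 15 (14.0%) were at least 2-fold lower, where 22.2% of all genes counted were. With 10 CPM added, a gene that starts under 10 CPM cannot be counted as 2-fold lower. Mmp12, at 9.78 CPM before and 0.377 CPM after 48 h, is thus among those between. The 14.0% therefore depends in part on starting levels. The 47 genes are 13.2% of the 357 that were higher in HOXA9 OFF. The 71 genes at least 1.5-fold lower in CAF-1 OFF split into 41 (57.7%) that were at least 2-fold lower in HOXA9 OFF, 28 between and 2 higher.

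Among the shared rises, Slpi was at 152 CPM at 0 h and 1786 CPM at 48 h in HOXA9 OFF, Cebpe at 82.3 and 704 CPM, Elane at 48.2 and 512 CPM, and Lcn2 at 23.1 and 1269 CPM. Chil3 went from 0 UMIs to 4897 CPM, a far higher end level than in CAF-1 OFF. Pf4, in contrast, was at 10.0 and 2.07 CPM, Mmp12 at 9.78 and 0.377 CPM, and Tgm3 at 1.67 and 5.27 CPM. H3f3b was at 1746 and 1395 CPM, H1fx at 119 and 23.2 CPM, and Mcpt8 at 164 and 17.5 CPM. Differences between the arms were not tested, and the arms also differ in clone.

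**Figure D5:**
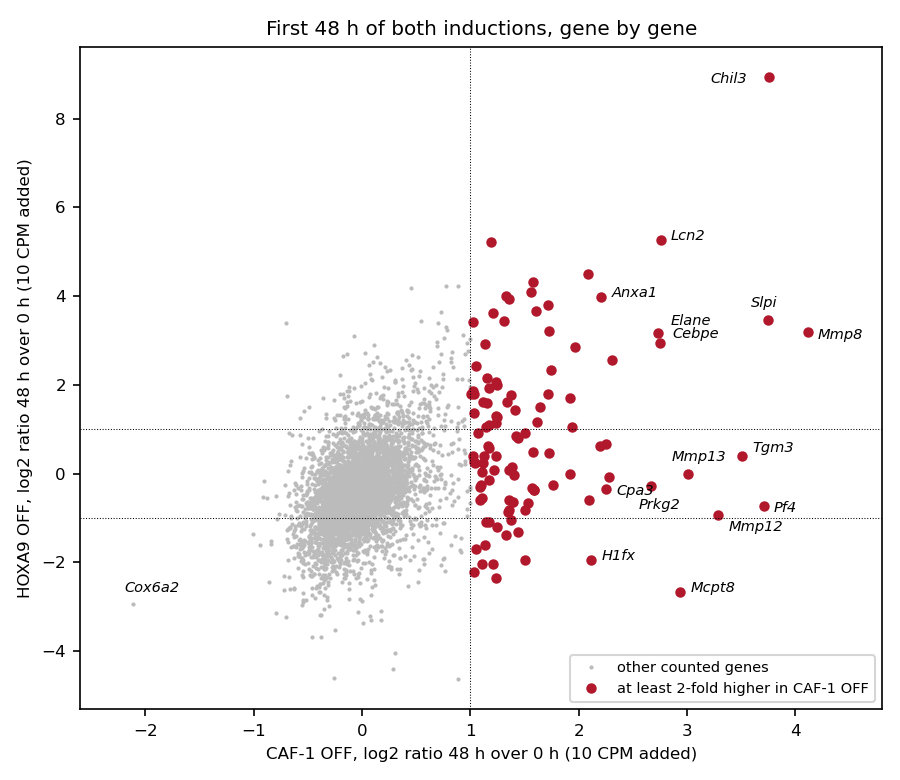
Log2 ratio of 48 h over 0 h in CAF-1 OFF (horizontal) and HOXA9 OFF (vertical) for the 4715 genes counted, with the 107 genes at least 2-fold higher in CAF-1 OFF in red and dotted lines at 2-fold changes. Of the red points 47 lie above the upper line, 45 between the lines and 15 below the lower one.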

How the data were processed

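The authors sorted live cells, prepared 10x Chromium 3′ v2 libraries and mapped the reads to mm10/GRCm38. The submitters' processing notes name Cell Ranger 3.0.1, Seurat 3.0.1 and Scanpy 1.4.6. They deposited whole-number UMI counts per gene and barcode for 6 libraries, and the barcode ending gave the library. Barcodes with 200 to 6000 genes and at most 10% mitochondrial UMIs, limits given in the study's methods, were kept and their counts summed per library and divided by the library total (CPM). Genes averaging 20 CPM or more over both libraries were counted, and at least 2-fold on the log2 scale with 10 CPM added counted as higher or lower. For a gene without UMIs, 3 counts in its library served as the floor. No doublet caller was run. With 1 library a side no test was made.

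Named genes were Chaf1b, Chaf1a, the 30 largest rises and 15 largest falls (at least 1.5-fold) among genes with at least 50 CPM in 1 library and less than 2-fold apart between the 0 h libraries, members of the gene lists, and a few genes singled out after their values were seen. There were 40 lists and 3 added after values were seen, and 4 listed symbols matched no column. The members and lists were chosen with earlier results of these data known. Alternatives changed the pseudocount, scaling (TMM factors by edgeR 4.0.16 in R 4.3.3, median of ratios, a total without mitochondrial and ribosomal genes), cell filters, starting library, minimum level, fold size and thinning depth. The counting of changed genes was checked on simulated data. Python 3.11.15, NumPy 2.4.6, SciPy 1.17.1, pandas 2.3.3 and matplotlib 3.10.9 were used. Promoter windows are from RefSeq annotation of GRCm38.p6.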

Additional observations from a re-analysis of the deposited data

Results flagged for a closer look

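A set of 16 genes was flagged because the first 48 h went in opposite directions in CAF-1 OFF and HOXA9 OFF, and these differences were not tested. Of these, 15 were at least 2-fold higher in CAF-1 OFF and at least 2-fold lower in HOXA9 OFF. The other, Cd52, was the 1 of the 15 named falls, at least 1.5-fold lower in CAF-1 OFF, that was at least 2-fold higher in HOXA9 OFF. The log2 ratio in CAF-1 OFF exceeded that in HOXA9 OFF by 5.6 for Mcpt8 (a basophil protease), 4.07 for H1fx (a linker histone), 3.58 for Thy1, 3.45 for Mzb1, 3.25 for Gimap6, 3.25 for H2-Q7 (a class I histocompatibility gene) and 3.15 for Car2 (carbonic anhydrase 2). It exceeded it by 2.76 for Nkg7, 2.75 for Gpr12, 2.75 for Pla2g12a, 2.71 for Rab38, 2.45 for Ube2s, 2.43 for Zbtb8a, 2.27 for 4930519L02Rik and 2.23 for Dnajc10. Cd52 had the opposite sign, with a difference of −4.08, its CAF-1 OFF levels being 119.6 and 69.8 CPM and its HOXA9 OFF levels 70.2 and 827 CPM.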

How the results depend on the processing

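With 1 library per group, no library could be left out, and counting error is the only error that depth sets. No paired analysis was possible because each group has 1 library and so shares 1 replicate number. The number of genes at least 2-fold higher, 107, became 35 with a pseudocount of 50 CPM, 159 with 1 CPM, 171 with no minimum level, 64 with a minimum of 50 CPM, 269 at 1.5-fold and 21 at 4-fold. The number lower, 2, became 7 with a pseudocount of 1 CPM, 1 with 50 CPM, 5 when mitochondrial and ribosomal protein genes were left out of the total, 1 with no mitochondrial limit, 8 with a limit of 5%, 5 with the mean of both 0 h libraries as start, 4 with no minimum, 1 with a minimum of 50 CPM, 71 at 1.5-fold and 1 at 4-fold. The log2 ratio of Chaf1b, −1.79, was −3.12 and −0.69 with 1 and 50 CPM added, −2.10 with that total, −2.07 with the limit of 5% and −2.02 with the mean of both 0 h libraries. Genes found only at 48 h numbered 207 and those found only at 0 h 7 at 5 UMIs or more, and 27 genes were found only at 48 h at 20 UMIs or more. The median of the eosinophil list, 1.06, reversed to −0.84 with the mean of both 0 h libraries, where Prg2 and Prg3 are higher. The cause of the other moves was not tested. Of the 30 named rises, 30 stayed at least 2-fold higher in all alternatives but the pseudocount of 50 CPM, where 21 did. The naming rule already asked for less than 2-fold between the 0 h libraries. Of all 107 genes that rose, 89 stayed with the mean of both 0 h libraries as start. Of the 15 named falls, 6 stayed at least 1.5-fold lower with the pseudocount of 50 CPM. With the limit of 5% and with the mean of both 0 h libraries 14 did. Shares of cells with a UMI moved with the thinning depth and with the number of UMIs asked for in all 90 values computed, as for Pf4 at 48 h, 29.0% thinned and 57.7% unthinned, and Tgm3, 10.1% and 24.8%.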
